A study of Homo sapiens with 8 samples.

Results

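The SLC25 genes encode the mitochondrial carriers, the family of small membrane proteins that move metabolites, nucleotides and cofactors across the inner mitochondrial membrane. Every row of the count table whose symbol starts with SLC25A was taken, which gave 46 of 23368 rows: 45 carrier genes and SLC25A5-AS1, a noncoding RNA read from the strand opposite to SLC25A5. Of these, 40 passed the filter on low counts and were tested, and the other 6 are given at the end. The libraries were made from MDA-MB231 cells, a widely used line from a human breast tumour without estrogen receptor, progesterone receptor or HER2 amplification, kept in serum-containing DMEM and transfected with siRNA by interferin, a transfection reagent. A control siRNA (siC) was set against siE1, siE2 and siE3, which are 3 different siRNAs against the mRNA of ESRRA, the gene of the orphan nuclear receptor ERRα, and each of the 4 groups had 2 libraries. All groups share the line, the medium and the transfection, so every comparison is between transfected cells. For the siRNAs, no sequence, dose or time of harvest was at hand.

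Carriers of this family are built from a repeated domain and work as exchangers or importers, most of them with a narrow choice of substrate. They connect the TCA cycle, oxidative phosphorylation, the malate-aspartate shuttle, heme and iron-sulfur synthesis and folate metabolism with the cytosol. ERRα, with its PGC-1 coactivators, is known as an activator of mitochondrial energy genes, which include carriers, and it binds DNA at extended half-sites built on the letters AAGGTCA.

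Several members resemble each other in their coding bases or have pseudogenes, which can bear on how reads are assigned. The coding bases around the signature that marks ADP/ATP carriers (3 arginine codons followed by 3 methionine codons, in capitals) are shown for the 4 genes of that class, to show how alike they are. The stretches come from GENCODE v29 transcripts on GRCh38, in the coding direction, and cover coding bases 682 to 741, or 718 to 777 in SLC25A31.
SLC25A5: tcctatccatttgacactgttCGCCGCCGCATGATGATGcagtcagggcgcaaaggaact
SLC25A6: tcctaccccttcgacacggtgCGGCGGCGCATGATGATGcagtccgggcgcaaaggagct
SLC25A4: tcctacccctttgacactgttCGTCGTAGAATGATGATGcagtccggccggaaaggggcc
SLC25A31: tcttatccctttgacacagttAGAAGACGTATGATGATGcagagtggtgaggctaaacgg

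Over these 60 bases SLC25A6 differed from SLC25A5 at 9, SLC25A4 at 12 and SLC25A31 at 23. Over the 894 coding bases, SLC25A5 was 78.7% identical to SLC25A6 and 77.2% identical to SLC25A4, and the longest run that SLC25A5 shared was 29 bases with SLC25A6 and 14 with SLC25A4. RefSeq (GRCh38.p14) also lists 9 pseudogenes named for SLC25A5, 6 for SLC25A6, 5 each for SLC25A1 and SLC25A15 and 3 for SLC25A3. It lists 2 each for SLC25A24 and SLC25A39, and 1 each for SLC25A14, SLC25A18, SLC25A20, SLC25A36, SLC25A38 and SLC25A47. The sources used here do not say how reads that match several places were counted, so the values of these genes are less certain than those of single-copy members.

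Total counts ran from 21835995 to 25880548 per library. ESRRA itself stood at 62.9 and 64.8 CPM (counts scaled to the TMM-adjusted library size) in the siC libraries and at 7.25 to 10.5 in the 6 siRNA libraries, so that 12.6% to 16.3% of the control level remained. Markers of the line were present, with VIM at 3165 to 4058 CPM and CD44, EGFR, AXL and CAV1 at 86.7 CPM or more in every library, while PGR was listed at 0 and ESR1 and CDH1 had at most 3 counts. EPCAM (9.11 to 12.7 CPM) and GATA3 (2.57 to 4.32 CPM) were low. Of the markers of other cells, PTPRC and ALB had at most 2 counts and PECAM1 3 to 16, and COL1A1 had 91 to 230. The marker list summed to 5.44 to 6.75 CPM under siC, 4.52 to 5.44 under siE1, 9.54 to 10.8 under siE2 and 7.23 to 7.63 under siE3, with COL1A1 (0.64 on the log2 scale) and PECAM1 (2.34) called higher with siE2 (edgeR adjusted p = 0.0015 and 0.0031). Their part in the siE2 results was not tested. Whether a group's libraries are separate cultures is not stated in the labels, and the p-values then measure only how much these samples scatter, which may be technical.

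More carriers fell than rose in the average of the 3 siRNAs. Of the 40 tested members 18 fell (45%) and 8 rose (20%) in the average at an edgeR adjusted p below 0.05, against 27.7% and 23.4% of all 13395 tested genes. The median log2 fold change was -0.16 for the members and -0.01 for all tested genes. The test of the average uses the scatter within groups, so disagreement between the siRNAs does not count against a call. In the order siE1, siE2, siE3, SLC25A39 was at -0.99, 0.11 and -0.11 and SLC25A13 at 0.20, -0.81 and 0.03. Both are among the lower calls of the average, so such a call need not be shared by the siRNAs. Under siE1 alone 9 fell and 10 rose (background 25.8% lower and 24.5% higher), with a median of -0.01, the same as over all genes. Under siE2 alone 19 fell and 7 rose (background 28.5% and 27.9%), with a median of -0.23, against 0.01 over all genes. Under siE3 alone 15 fell and 6 rose (background 20.8% and 21.3%), with a median of -0.15 for the members, against -0.0018. The siE1 shares, 22.5% lower and 25% higher, were near the background, and the siE2 and siE3 shares of lower calls, 47.5% and 37.5%, were above it. In either direction, 19 members were called with siE1 (47.5%, background 50.3%), 26 with siE2 (65%, background 56.4%), 21 with siE3 (52.5%, background 42.1%) and 26 in the average (65%, background 51.1%). Without siC replicate 2, both lower and higher calls were fewer in the average and with siE2, and lower calls were fewer with siE3. The background shares of that fit were not computed. In RNA from whole cultures, fewer cells expressing a gene and less RNA per cell cannot be told apart.

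Calls made by all 3 siRNAs were few. SLC25A5, SLC25A12, SLC25A15, SLC25A22 and SLC25A32 fell with each siRNA (12.5% of the tested members, background 7.42%). SLC25A24, SLC25A40 and SLC25A46 rose with each (7.5%, background 8.73%). Another 5 members, SLC25A13, SLC25A23, SLC25A30, SLC25A39 and SLC25A43, were called in opposite directions by different siRNAs (12.5%, background 10.7%), and 8 were called by none (20%, background 21.2%). These shares are close to those of all genes. All 6 siRNA libraries lay below both siC libraries for 6 members (15%, background 15.4%), which were the 5 that fell with each siRNA and SLC25A10. All 6 lay above both for another 6 (15%, background 15.1%), the 3 that rose with each and SLC25A1, SLC25A4 and SLC25A45. The comparisons share the siC libraries, so their calls are not independent of each other.

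**Figure D1:**
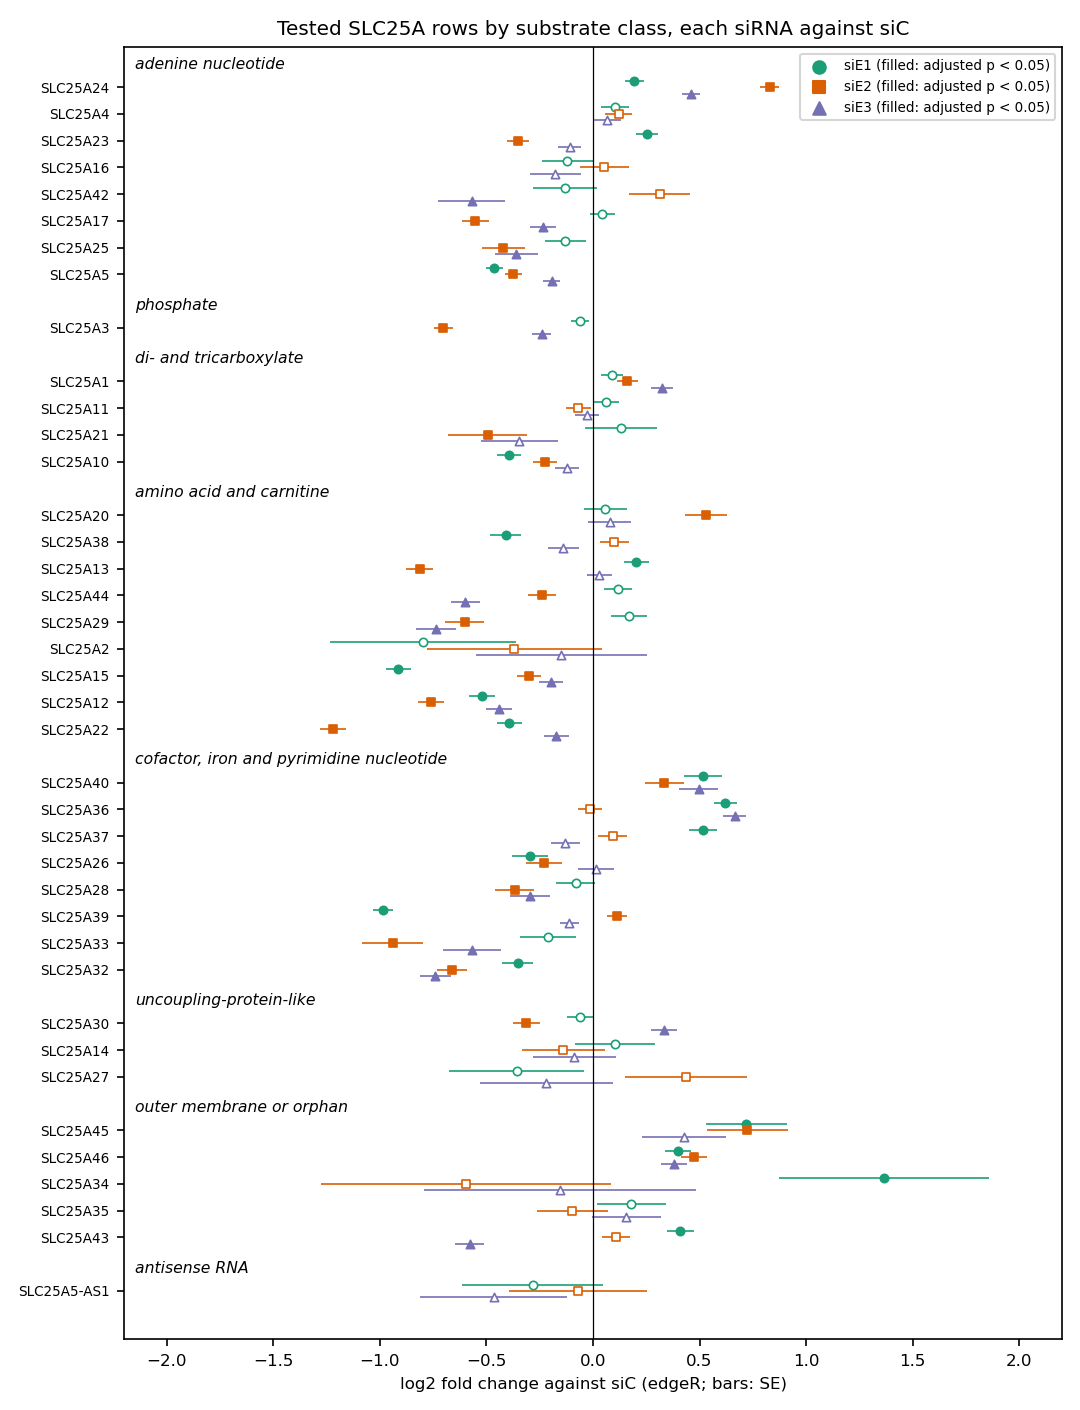
Log2 fold change against siC (x axis, bars show the SE) for the tested SLC25A rows reported here, grouped by substrate class and ordered by the average within a class. Circles are siE1, squares siE2 and triangles siE3, filled where the edgeR adjusted p was below 0.05, and the amino acid class shows most of its filled symbols left of 0, down to -1.22 for SLC25A22 with siE2.

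Before the comparisons, the control cells show which carriers are abundant. Per kilobase of the principal GENCODE transcript, SLC25A3, the phosphate carrier, led with 574 and 597 CPM per kilobase in the siC libraries. SLC25A5, the ADP/ATP carrier of proliferating cells, followed with 378 and 391, and SLC25A39, a glutathione carrier, with 96.4 and 98.4. SLC25A11, SLC25A1, SLC25A24 and SLC25A32 came next, at 50.9 to 56.1 in both libraries, and neighbours in this order overlapped. SLC25A4, the ADP/ATP carrier known from heart and muscle, stood at 7.51 and 7.93 CPM per kilobase, far below SLC25A5. SLC25A3, SLC25A5, SLC25A24 and SLC25A39, the 4 rows with the most counts, held 51.7% to 55.3% of the counts of the SLC25A rows in each library. The summed level of the SLC25A rows was 3311 and 3430 CPM under siC, 3235 and 3109 under siE1, 2876 and 2834 under siE2, and 3118 and 3208 under siE3. These shares and sums hold SLC25A6 at 0. They also leave out relatives under other symbols, such as MTCH1 at 523 and 542 CPM under siC.

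**Figure D2:**
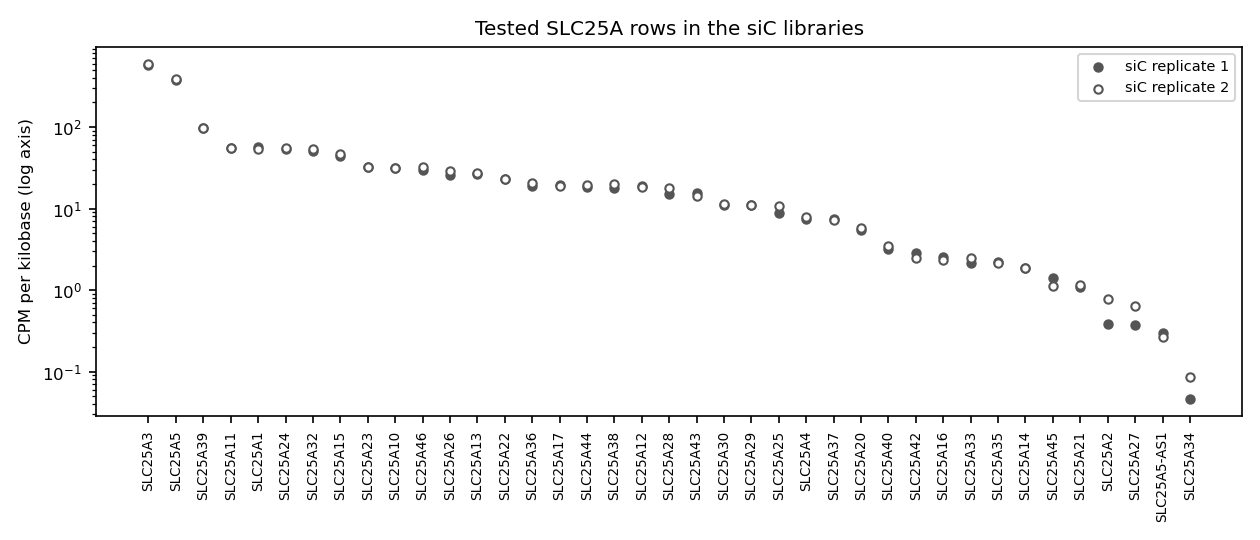
Level of each tested SLC25A row reported here in the 2 siC libraries, as CPM per kilobase of transcript on a log axis, ordered from high to low. The libraries lie on top of each other for most rows and come apart at the low end, where SLC25A2 is at 0.386 and 0.786.

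The ADP/ATP carriers exchange cytosolic ADP for the ATP made in the matrix, and the phosphate carrier SLC25A3 brings in the phosphate. SLC25A5 fell with each siRNA. Its level was 482 and 498 CPM under siC, 358 and 352 under siE1, 379 and 377 under siE2 and 424 and 432 under siE3. All 6 siRNA libraries were below both controls. In the order siE1, siE2, siE3, the log2 fold changes were -0.46 (SE 0.0399), -0.37 (SE 0.0399) and -0.19 (SE 0.0398) (edgeR adjusted p = 1.7e-07, 1.2e-06 and 0.0011).

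SLC25A4 was at 33.4 and 35.2 CPM under siC, 37.1 and 36.5 under siE1, 36.3 and 38.3 under siE2 and 35.7 and 36.2 under siE3. Its 6 siRNA libraries were all above the controls but by little, and no siRNA gave a call, and the average was 0.10 on the log2 scale (SE 0.0536, edgeR adjusted p = 0.15). Scaled by library size alone, SLC25A4 was called under siE2. SLC25A6, the third somatic ADP/ATP carrier and widely expressed, was listed at 0 in every library. It lies in one of the regions that the X and Y chromosomes share. GENCODE v29 places 18 protein-coding genes there, and all 18 were listed at 0 in every library, CD99 and VAMP7 among them. No level of SLC25A6 can be read from such a value.

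SLC25A3 fell with siE2 and siE3. It was at 963 and 1002 CPM under siC, 972 and 913 under siE1, 606 and 601 under siE2 and 807 and 856 under siE3. The siE1 libraries overlapped the controls, the siE2 libraries lay far below them and siE3 lay between. The log2 fold changes were -0.06 (SE 0.0442, edgeR adjusted p = 0.27), -0.70 (SE 0.0446, edgeR adjusted p = 4.7e-09) and -0.24 (SE 0.0443, edgeR adjusted p = 4.5e-04). With siE2, 61.4% of the control level of this carrier, the most abundant of the SLC25A rows, remained.

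**Figure D3:**
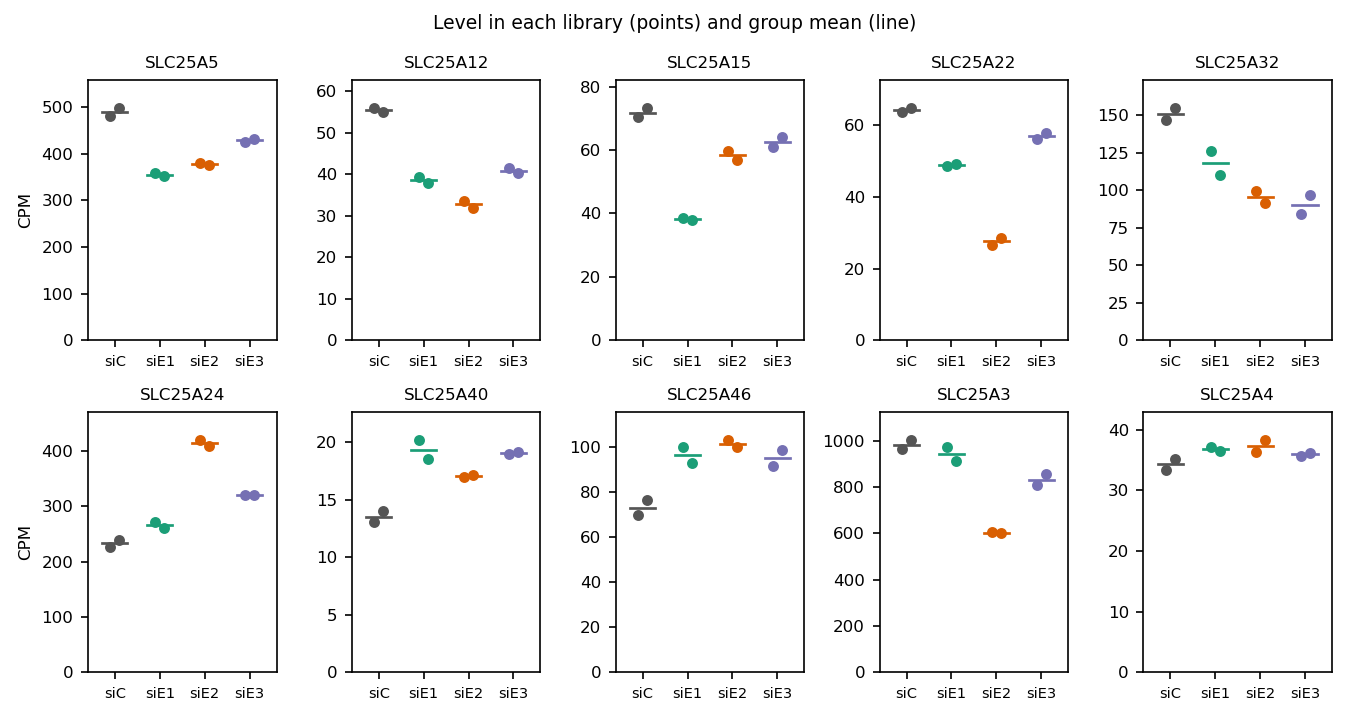
CPM in each library (points) with the group mean (line) for 10 carriers, each panel starting at 0. The upper row holds the 5 carriers that fell with each siRNA, and the lower row the 3 that rose with each, SLC25A3, and SLC25A4, which was not called.

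A second group of adenine nucleotide carriers exchanges ATP-Mg for phosphate and so sets the size of the matrix nucleotide pool under control of calcium. SLC25A24, its member with the most reads here, rose with each siRNA. It went from 227 and 239 CPM under siC to 272 and 261 under siE1, 419 and 408 under siE2 and 320 and 320 under siE3. All 6 siRNA libraries were above both controls, and siE2 gave 178% of the control level. The log2 fold changes were 0.19 (SE 0.0435), 0.83 (SE 0.0433) and 0.46 (SE 0.0434), with edgeR adjusted p = 0.0017, 6.6e-10 and 7.0e-07.

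SLC25A23 of the same group was called in opposite directions. It was at 109 and 112 CPM under siC, 134 and 130 under siE1, 86.4 and 86.9 under siE2 and 107 and 97.9 under siE3. It rose with siE1 (0.25, SE 0.0517, edgeR adjusted p = 8.5e-04) and fell with siE2 (-0.35, SE 0.0530, edgeR adjusted p = 4.1e-05), while siE3 was at -0.11 (edgeR adjusted p = 0.11) and was called without siE3 replicate 1. SLC25A25, the third of the group, was at -0.13, -0.42 and -0.36 with siE1, siE2 and siE3, and its average was -0.30 (SE 0.0803, edgeR adjusted p = 0.0052). Its call rested on 1 control library: without siC replicate 2 the average was -0.14 (edgeR adjusted p = 0.26).

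The remaining members of the adenine nucleotide class carry coenzyme A or serve the peroxisome. SLC25A17, the peroxisomal carrier of cofactors such as coenzyme A, fell with siE2 (-0.55, SE 0.0632) and siE3 (-0.24, SE 0.0619) and was at 0.04 with siE1. SLC25A42, which imports coenzyme A, fell with siE3 (-0.57, SE 0.159, edgeR adjusted p = 0.0091), a call that ended without siC replicate 1 or without siE3 replicate 2. With siE2 it was at 0.31 (edgeR adjusted p = 0.077), which became a call with no filter on low counts and in a fit of siE2 and siC alone. SLC25A16, linked to matrix coenzyme A, was called by no siRNA (-0.12, 0.05 and -0.18). In the whole class 3 of 8 tested members fell in the average (37.5%, background 27.7%) and 1 rose (12.5%, background 23.4%), with a median of -0.11.

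Carriers of di- and tricarboxylates link the TCA cycle with cytosolic lipid and amino acid synthesis. SLC25A1 exports citrate, the source of cytosolic acetyl-CoA. It rose with siE2 (0.16, SE 0.0504, edgeR adjusted p = 0.013) and siE3 (0.32, SE 0.0502, edgeR adjusted p = 9.6e-05), was at 0.09 with siE1, and the siE2 call ended without siC replicate 2 or without siE2 replicate 2. The SLC25A1 average was 0.19 (SE 0.0415, edgeR adjusted p = 0.0013). ACLY, the enzyme that splits the exported citrate, had a mean of 206 CPM under siC and of 622, 610 and 707 under siE1, siE2 and siE3 (average 1.64, SE 0.0397, edgeR adjusted p = 3.9e-13). SLC25A10, which exchanges malate and succinate for phosphate, fell with siE1 (-0.39, SE 0.0577) and siE2 (-0.22, SE 0.0572) and was at -0.12 with siE3 (edgeR adjusted p = 0.10). SLC25A11, the oxoglutarate carrier of the malate-aspartate shuttle, was called by no siRNA (0.06, -0.07 and -0.03). SLC25A21, which carries oxoadipate, had 49 to 85 counts and fell with siE2 (-0.50, SE 0.185, edgeR adjusted p = 0.032), a call lost in 5 of 16 alternatives.

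Amino acid and carnitine carriers had more lower than higher calls with each siRNA. Of 9 tested members 7 fell (77.8%, background 27.7%) and 1 rose (11.1%, background 23.4%) in the average, and the median was -0.39. The lower calls numbered 4 under siE1 (44.4%, background 25.8%), 6 under siE2 (66.7%, background 28.5%) and 5 under siE3 (55.6%, background 20.8%), and the higher calls 1, 1 and 0. The class includes 3 of the 5 carriers that fell with each siRNA.

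SLC25A22 imports glutamate with protons. It was at 63.6 and 64.8 CPM under siC, 48.7 and 49.1 under siE1, 26.5 and 28.6 under siE2 and 56.1 and 57.8 under siE3, so that no siRNA library reached the controls and siE2 stood far below the others. The log2 fold changes were -0.39 (SE 0.0583), -1.22 (SE 0.0620) and -0.17 (SE 0.0578), with edgeR adjusted p = 4.7e-05, 5.2e-10 and 0.025. The siE2 value, 42.9% of the control level, was the lowest of any tested member with any siRNA. The small siE3 change was not called in 4 of 16 alternatives, which were the DESeq2 Wald test (adjusted p = 0.076) and the edgeR fits without siC replicate 1 (adjusted p = 0.065), without siC replicate 2 (0.12) and without siE3 replicate 1 (0.11). Over all 16 the adjusted p ran from 0.021 to 0.12.

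SLC25A12 and SLC25A13 are the aspartate/glutamate carriers, which drive the malate-aspartate shuttle. SLC25A12 fell with each siRNA, from 56.0 and 55.1 CPM under siC to 39.5 and 38.0 under siE1, 33.6 and 32.0 under siE2 and 41.5 and 40.3 under siE3. Its groups did not overlap the controls, and the log2 fold changes were -0.52 (SE 0.0604), -0.76 (SE 0.0617) and -0.44 (SE 0.0604), with edgeR adjusted p = 4.0e-06, 6.6e-08 and 3.0e-05. SLC25A13, the liver-type form known from citrin deficiency, was at 83.8 and 85.3 CPM under siC, 98.4 and 96.4 under siE1, 48.8 and 47.5 under siE2 and 80.8 and 91.7 under siE3. It fell with siE2 (-0.81, SE 0.0625, edgeR adjusted p = 3.8e-08) and rose with siE1 (0.20, SE 0.0592, edgeR adjusted p = 0.0097), and siE3 overlapped the controls (0.03). The siE1 rise was not called without siC replicate 1 or without siE1 replicate 1 (edgeR adjusted p up to 0.060). The SLC25A13 average was -0.19 (SE 0.0489, edgeR adjusted p = 0.0038). Of the enzymes of this shuttle, mitochondrial GOT2 fell by 0.44 in the average and cytosolic MDH1 by 0.26. MDH1 was called only with siE2 (-0.59), and was at -0.07 with siE1 and -0.11 with siE3.

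SLC25A15, the ornithine carrier of the urea cycle and polyamine pathway, fell most with siE1. It went from 70.3 and 73.3 CPM under siC to 38.5 and 37.8 under siE1, 59.8 and 56.9 under siE2 and 61.1 and 64.2 under siE3. The siE1 libraries stood apart at 53.1% of the control level, and the log2 fold changes were -0.91 (SE 0.0592), -0.30 (SE 0.0571) and -0.20 (SE 0.0569), with edgeR adjusted p = 8.3e-09, 3.6e-04 and 0.011. The siE3 call ended without siC replicate 2 or without siE3 replicate 1 (edgeR adjusted p up to 0.099). SLC25A2, its near copy with 87.6% identical coding bases, had 8 to 26 counts and was not called.

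Further amino acid carriers followed different siRNAs. SLC25A29, a carrier of basic amino acids, fell with siE2 (-0.60, SE 0.0919) and siE3 (-0.74, SE 0.0934) and was at 0.17 with siE1, with an average of -0.39 (edgeR adjusted p = 3.6e-04). SLC25A44, which imports branched-chain amino acids, fell with siE2 (-0.24) and siE3 (-0.60, SE 0.0673) and was at 0.12 with siE1, and the siE2 call ended without siC replicate 2 or without siE2 replicate 2. SLC25A38, the glycine carrier needed for heme synthesis, fell with siE1 (-0.41, SE 0.0719, edgeR adjusted p = 2.2e-04) and was at 0.10 and -0.14 with siE2 and siE3, and its average call (-0.15, edgeR adjusted p = 0.041) was lost in 9 of 15 alternatives. SLC25A20, the carnitine-acylcarnitine carrier of fatty acid oxidation, rose with siE2 (0.53, SE 0.0979, edgeR adjusted p = 2.7e-04) and was at 0.06 and 0.08 with siE1 and siE3. Its average (0.22, edgeR adjusted p = 0.037) was not called in 8 of 15 alternatives.

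Carriers of cofactors, iron and pyrimidine nucleotides were all called in the average (background 51.1%), 6 lower and 3 higher of 9 tested (background 27.7% and 23.4%), with a median of -0.25. With siE1 3 fell and 3 rose (33.3% each, background 25.8% and 24.5%). With siE2 5 fell (55.6%, background 28.5%) and 2 rose (22.2%, background 27.9%). With siE3 4 fell (44.4%, background 20.8%) and 2 rose (22.2%, background 21.3%). SLC25A32, which brings folate or FAD into the matrix, fell with each siRNA. It was at 147 and 155 CPM under siC, 126 and 110 under siE1, 99.5 and 91.4 under siE2 and 84.3 and 96.6 under siE3. The siRNA libraries were all below the controls, with siE1 the nearest, and the log2 fold changes were -0.35 (SE 0.0712), -0.66 (SE 0.0723) and -0.74 (SE 0.0727), with edgeR adjusted p = 7.2e-04, 1.6e-06 and 1.0e-06.

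The pyrimidine nucleotide carriers SLC25A33 and SLC25A36 serve mitochondrial DNA and RNA synthesis. SLC25A33 was at 8.31 and 9.43 CPM under siC, 8.45 and 6.95 under siE1, 4.8 and 4.44 under siE2 and 6.03 and 5.93 under siE3. It fell with siE2 (-0.94, SE 0.141, edgeR adjusted p = 4.0e-05) and siE3 (-0.57, SE 0.136, edgeR adjusted p = 0.0034), and the siE1 libraries overlapped the controls (-0.21, edgeR adjusted p = 0.19). SLC25A36 was at 88.1 and 94.1 CPM under siC, 143 and 137 under siE1, 90.5 and 90.1 under siE2 and 139 and 150 under siE3. It rose with siE1 (0.62, SE 0.0538, edgeR adjusted p = 1.9e-07) and siE3 (0.66, SE 0.0539, edgeR adjusted p = 1.4e-07), and siE2 lay within the controls (-0.01).

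SLC25A39 and SLC25A40 are the carriers known for glutathione import. SLC25A39 was at 155 and 158 CPM under siC, 77.1 and 80.8 under siE1, 170 and 168 under siE2 and 146 and 144 under siE3. With siE1 50.5% of the control level remained (-0.99, SE 0.0468, edgeR adjusted p = 2.8e-10). The siE2 libraries were above the controls (0.11, SE 0.0448, edgeR adjusted p = 0.044), a call lost in 9 of 16 alternatives, and siE3 was at -0.11 (edgeR adjusted p = 0.062). SLC25A40 rose with each siRNA, from 13 and 14 CPM under siC to 20.2 and 18.5, 16.9 and 17.1, and 19.0 and 19.1 with siE1, siE2 and siE3. Its groups did not overlap the controls, and the log2 fold changes were 0.52 (SE 0.0893), 0.33 (SE 0.0909) and 0.50 (SE 0.0900), with edgeR adjusted p = 2.0e-04, 0.0054 and 4.0e-04. The siE2 call ended without siC replicate 1 (edgeR adjusted p = 0.051).

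The mitoferrins SLC25A28 and SLC25A37 import iron for heme and iron-sulfur clusters. SLC25A28, the form found in most tissues, fell with siE2 (-0.37) and siE3 (-0.30) and was at -0.08 with siE1, and without siC replicate 2 neither fall was called and the average moved from -0.25 to -0.12 (edgeR adjusted p = 0.32). SLC25A37, the erythroid form, rose with siE1 (0.52, SE 0.0656, edgeR adjusted p = 1.0e-05) and was at 0.09 and -0.13 with siE2 and siE3, and its average (0.16, edgeR adjusted p = 0.025) was not called in 4 of 15 alternatives. SLC25A26, which imports S-adenosylmethionine, fell with siE1 (-0.30) and siE2 (-0.23) and was at 0.01 with siE3. Its average, -0.17 (edgeR adjusted p = 0.049), was not called in 8 of 15 alternatives and was -0.08 without siC replicate 2. SLC25A26 with siE1 and siE2 also lost its calls without siC replicate 2.

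**Figure D4:**
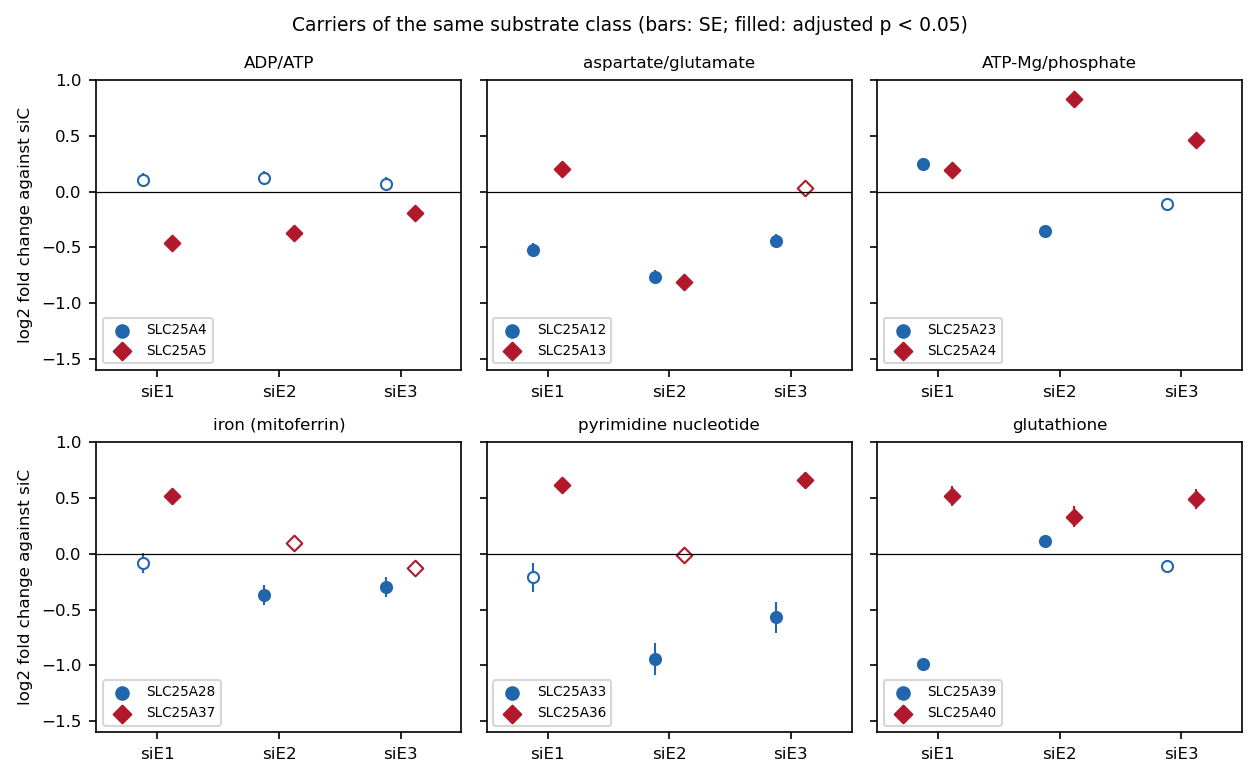
Log2 fold change against siC (y axis, bars show the SE) with each siRNA for 6 pairs of carriers of the same substrate class, filled where the edgeR adjusted p was below 0.05. In the glutathione panel SLC25A39 is at -0.99 with siE1, where SLC25A40 is at 0.52, and in the aspartate/glutamate panel both genes are low with siE2, at -0.76 and -0.81. Differences between the genes of a pair were not tested.

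Carriers resembling uncoupling proteins showed no shared direction. SLC25A30 was at 40.9 and 41.2 CPM under siC, 38.2 and 40.4 under siE1, 32.8 and 33.4 under siE2 and 51.8 and 51.6 under siE3. It fell with siE2 (-0.31, SE 0.0624, edgeR adjusted p = 5.4e-04) and rose with siE3 (0.33, SE 0.0600, edgeR adjusted p = 3.7e-04). SLC25A14 (56 to 89 counts) and SLC25A27 (23 to 51 counts) were called by no siRNA. UCP2, an uncoupling-protein gene outside the SLC25A symbols, moved both ways as well, at -0.55 with siE1, 0.39 with siE2 and -0.18 with siE3, each called.

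SLC25A46 sits in the outer mitochondrial membrane, where it takes part in fission and lipid transfer, and it rose with each siRNA. It went from 69.9 and 76.3 CPM under siC to 100 and 93.1 under siE1, 103 and 99.9 under siE2 and 91.4 and 98.8 under siE3. The siRNA libraries were all above the controls. Those of siE1 overlapped those of siE2 and those of siE3, and siE2 lay above siE3. The log2 fold changes were 0.40 (SE 0.0604), 0.47 (SE 0.0603) and 0.38 (SE 0.0606), with edgeR adjusted p = 5.5e-05, 7.9e-06 and 1.3e-04. MTCH1 and MTCH2, relatives in the same membrane under other symbols, were at -0.23 (called) and -0.08 (not called) in the average.

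The carriers treated here as orphans, whose substrates were long unknown, were mostly low in counts. Those tested form a class of 5 members together with SLC25A46. With siE1 4 of the 5 rose and 0 fell (80% higher, background 24.5% higher and 25.8% lower). With siE2 and in the average 2 rose (40%, background 27.9% and 23.4%) and 0 fell (background 28.5% and 27.7%). With siE3 1 rose and 1 fell (20% each, background 21.3% and 20.8%). The class median was 0.41 with siE1 and 0.20 in the average. SLC25A43 was at 43.3 and 39.3 CPM under siC, 54.3 and 55.4 under siE1, 43.8 and 45.3 under siE2 and 28.3 and 27.0 under siE3. It rose with siE1 (0.41, SE 0.0642, edgeR adjusted p = 7.8e-05) and fell with siE3 (-0.58, SE 0.0690, edgeR adjusted p = 7.3e-06). SLC25A45 had 71 and 59 counts under siC, 98 and 130 under siE1, 124 and 96 under siE2 and 92 and 82 under siE3, all above the controls in CPM. It rose with siE1 (0.72, SE 0.189) and siE2 (0.72, SE 0.190), calls that ended without siC replicate 2, and was at 0.43 with siE3. Its average was the highest of the members, 0.62 (SE 0.161, edgeR adjusted p = 0.0044), but was not called without siC replicate 2 (0.45, edgeR adjusted p = 0.10). SLC25A35 was called by no siRNA (77 to 114 counts). SLC25A34 had 3 and 6 counts under siC and 12 and 13 under siE1, a difference of 1.36 on the log2 scale (SE 0.494, edgeR adjusted p = 0.031) whose call was lost in 5 of 15 alternatives.

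The siRNAs, which all lowered ESRRA, were also compared with each other. ESRRA was higher with siE1 than with siE2 (0.37 on the log2 scale, edgeR adjusted p = 0.0092) and than with siE3 (0.30, edgeR adjusted p = 0.031). Between siE2 and siE3 no difference in ESRRA was called (-0.06, edgeR adjusted p = 0.67). The part of ESRRA in the differences of the carriers was not tested. Between siE1 and siE2, 27 of 40 members differed (67.5%, background 57.1%), between siE1 and siE3 23 (57.5%, background 48.7%), and between siE2 and siE3 20 (50%, background 48.5%), by edgeR at an adjusted p below 0.05. A difference of at least 0.58 on the log2 scale, about 1.5-fold, was called between some pair of siRNAs for 19 members (47.5%, background 29.3%). The tested members had a median level of 38.9 CPM, against 31.3 for all tested genes, and this was not matched in these shares. siE1 gave higher values than siE2 for 19 members (47.5%, background 28.5%) and lower values for 8 (20%, background 28.6%). Against siE3, siE1 gave higher values for 13 (32.5%, background 23.3%) and lower values for 10 (25%, background 25.4%). Without siE1 replicate 1, fewer members were higher with siE1 than with siE3.

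Other genes of mitochondrial transport and the enzymes that work with the carriers also had more lower than higher calls in the average. Of 24 genes for sideroflexins, porins, the pyruvate carrier, the calcium uniporter and ABC transporters of the organelle, 14 fell (background 27.7%) and 2 rose (background 23.4%), with a median of -0.18. The list was chosen with earlier results known, as was that of the partner enzymes. SFXN1, the serine carrier, was at -0.86, -1.14 and -0.52 with siE1, siE2 and siE3 (average -0.84, SE 0.0388, edgeR adjusted p = 3.6e-10), and its relative SFXN3 at 0.64, 0.84 and 0.35, each called. The outer-membrane porin VDAC2 (-0.55), the pyruvate carrier subunit BRP44L, now MPC1 (-0.45), and the ion exchanger LETM1 (-0.31) fell too in the average. LETM1 was at 0.02 with siE1. The other pyruvate carrier subunit, BRP44, rose with siE1 (0.24, edgeR adjusted p = 0.0089) and siE3 (0.23, edgeR adjusted p = 0.014). With siE2 BRP44 was at -0.15 and in the average at 0.11, neither called. Of 21 tested partner enzymes 11 fell and 5 rose in the average, against the same background, with a median of -0.21. With siE1, siE2 and siE3 alone the medians of the partner enzymes were nearer to none, at -0.11, -0.02 and 0.04. With siE3 9 of them fell (42.9%, background 20.8%) and 7 rose (33.3%, background 21.3%). After ACLY, the smallest p-values there were those of GOT2, CRAT (0.71), ME2 (-0.51) and MDH1. Of 6 tested carrier relatives under other symbols, 1 was called in the average, MTCH1, which rose with siE1 (0.17) and fell with siE2 (-0.48) and siE3 (-0.39).

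The promoters were searched for the half-site AAGGTCA on both strands, in the 300 bases from 250 before to 50 after each start site that RefSeq gives on GRCh38.p14. Promoters were found for 38 of the 46 rows. Only SLC25A34 held the letters (2.63% of the matched members), against 4.8% of all 27305 genes with a promoter. The longer form TNAAGGTCA was in none of them and in 1.17% of all genes. The stretch is shown because it is the single match, on the strand opposite to the gene, at chr1:15736108-15736194 (GRCh38.p14, plus strand), with the reverse complement of the half-site in capitals.
SLC25A34: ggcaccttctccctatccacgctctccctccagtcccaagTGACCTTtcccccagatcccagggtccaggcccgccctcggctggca

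A match is a description of letters, and SLC25A34 is the least abundant tested member. No match says only that the letters are not in these windows.

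The rows not tested were SLC25A18 (4 to 8 counts), SLC25A31 (0 to 4), SLC25A41 (0 to 3), SLC25A47 (0 to 1) and SLC25A6 and SLC25A48, both listed at 0 in every library. For SLC25A48, a count of 0 allows up to 3 counts per library by counting error alone. SLC25A5-AS1 passed the filter with 13 to 23 counts and was called by no siRNA, and since the strand setting of the counting is not given, its reads cannot be told apart from those of overlapping transcripts. By the authors' deposited adjusted p-values, 17 members were below 0.05 with siE1 (9 higher, 8 lower), 21 with siE2 (5 higher, 16 lower) and 15 with siE3 (6 higher, 9 lower). Each of these was also called here, in the same direction. The reverse did not hold. With siE3 the authors' deposited adjusted p was 0.081 for SLC25A15 and 0.16 for SLC25A22, which fell with each siRNA here. With siE2 it was 0.20 for SLC25A39, which was called in opposite directions here.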

How the data were processed

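RNA-seq counts of 8 libraries were used, 2 for each of siC, siE1, siE2 and siE3, grouped by the sample titles. Per the submitters' processing notes, TopHat 1.3.3, HTSeq, DESeq and the build hg19 were used. The sources used here give neither annotation nor strand setting, nor the handling of multi-mapped reads. Per the file headers, the authors deposited raw read counts per gene symbol, a linear fold (ratio to siC) and an adjusted p-value per siRNA. The last 2 were used only for the comparison with the authors' calls.

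All 23368 rows entered 1 analysis, of which filterByExpr in edgeR 4.0.16 (R 4.3.3) kept 13395. Counts were scaled by TMM and tested with glmQLFit and glmQLFTest over all 8 libraries, a mean per group and 4 residual degrees of freedom, with Benjamini-Hochberg adjustment over all tested genes and called below 0.05. The SE of a log2 fold change is its size over the square root of F. Members and gene lists were chosen with earlier results of these data known. Members described with all 8 values were those called the same way by all 3 siRNAs or in opposite directions by 2, the 4 highest and 4 lowest averages among called members, and SLC25A3, SLC25A4, SLC25A5 and SLC25A6. Others called in the average or differing by at least 0.58 between siRNAs were named, as were up to 5 genes of each other list. BRP44 was named beyond these, as the second pyruvate carrier subunit.

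The counts cover all members and markers, of which 1 member and 1 marker are not reported here by name. The fit was tested on simulated counts. Transcript lengths and coding sequences came from GENCODE v29 and promoters from RefSeq, both on GRCh38 and not on hg19. Identity was computed with Biopython 1.88. Alternatives were DESeq2 1.42.0 size factors and its Wald test, limma-voom (limma 3.58.1), library size alone, no and a stricter low-count filter, a fit of 2 groups alone, a block for the replicate number, and leaving out each library.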

Additional observations from a re-analysis of the deposited data

Results flagged for a closer look

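For 19 carriers the effects of 2 siRNAs against the same siC libraries differed, by a direct test between the siRNAs, by at least 0.58 on the log2 scale (edgeR adjusted p below 0.05). The widest difference of each is given, with no explanation weighed.

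Higher with siE1 than with siE2 were SLC25A34 (1.96, at 2 to 13 counts per library), SLC25A13 (1.02), SLC25A33 (0.73), SLC25A3 (0.64), SLC25A21 (0.63), SLC25A17 (0.60) and SLC25A23 (0.60). Lower with siE1 than with siE2 were SLC25A39 (-1.10), SLC25A27 (-0.79, at 23 to 51 counts) and SLC25A24 (-0.63). The edgeR adjusted p of these 10 differences ran from 7.0e-11 for SLC25A39 to 0.032 for SLC25A27.

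Higher with siE1 than with siE3 were SLC25A43 (0.99), SLC25A29 (0.90), SLC25A44 (0.72) and SLC25A37 (0.64), and lower was SLC25A15 (-0.72). Between siE2 and siE3 the differences were -1.05 for SLC25A22, -0.68 for SLC25A36 and -0.65 for SLC25A30, all lower with siE2, and 0.88 for SLC25A42, higher with siE2.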

How the results depend on the processing

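Of 160 values (40 members, 3 siRNAs and the average), 92 were called, and 66 of these were called in every alternative that gave a value. The other 26 lost the call in at least 1, and 7 of 68 uncalled values gained one. Signs changed in 36 alternative values, none of them called in either setting. Leaving out siC replicate 2 cost the most calls (22). It left 5 members called higher in the average in place of 8, and 4 in place of 7 with siE2. Without siE1 replicate 1, 8 in place of 13 members were higher with siE1 than with siE3. Leaving out each library in turn gave 5 to 8 higher and 14 to 18 lower members in the average, 4 to 7 higher with siE2, and 8 to 15 higher with siE1 than with siE3. All other counts stayed within 1.5 times, but that of lower calls with siE3 reached this limit without siC replicate 2. Lower calls with siE2 were also fewer without that library. The labels do not state that equal replicate numbers share a day or batch. Deviations of equal numbers correlated at -0.39 (siC, siE1), -0.33 (siC, siE2) and 0.26 (siC, siE3). With the replicate number as a block, 23 members were called in the average in place of 26, all 23 among the 26, and with the numbers of siE1 and siE2 exchanged, a pairing chosen after seeing the data and not counted among those alternatives, 26 were, 6 of the 68 uncalled values were called, and lower calls with siE3 went from 15 to 18. Depth limits the members of few counts: SLC25A34 and SLC25A2, at 2 to 26 counts per library, had SEs of 0.401 to 0.681 on the log2 scale with single siRNAs against siC.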
